A study of Mus musculus with 25 samples.

Results

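The axon guidance ligands and receptors are the genes of the semaphorin, plexin, neuropilin, ephrin, Eph, Slit, Robo, netrin and netrin receptor families, chosen by their gene symbols and not by their values. They came to 69 of the 15768 genes listed in at least 1 of the 2 expression tables of the study, with 36 ligands, 31 receptors and the 2 neuropilin co-receptors. All 69 were listed and tested in the long-term experiment. In the short-term experiment 63 were listed and tested, while Efna3, Efna4, Efnb1, Plxna3, Plxnb3 and Sema3b were not analysed here. Among these, Efnb1, Plxna3 and Plxnb3 are the members on the X chromosome. Plxna3 had 572 or more reads in every long-term library. Why these genes lacked short-term values was not tested.

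RNA was sequenced from pituitaries of shRb mice, in which doxycycline (dox) in the drinking water switches on a short hairpin RNA against the tumor suppressor gene Rb1 together with a GFP reporter. Every mouse carried both transgenes, a Rosa26-rtTA activator that acts in many tissues and a TRE-driven hairpin at the Col1a1 locus. The line came from 1 embryonic stem cell clone and 1 hairpin, the mice were young adults when dox began, and no pituitary without the hairpin or never given dox was analysed here. In the long-term experiment, with poly(A)-selected libraries, mice received dox for 6 weeks (6w+dox, n = 3, all female), for 12 weeks (12w+dox, n = 4, replicates 1 and 2 female and 3 and 4 male), or for 6 weeks followed by 6 weeks without it so that RB returned (12w-res, n = 5, replicates 1 and 2 male and the other three female). In the short-term experiment, with rRNA-depleted libraries, mice with tumors after 16 weeks of dox (16w +dox, n = 3, male) were compared with mice taken 1 day (1d -dox, n = 4, female), 3 days (3d -dox, n = 3, male) or 5 days (5d -dox, n = 3, female) after dox was removed. Sex and time without dox therefore cannot be told apart at 1 and 5 days.

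Axon guidance molecules are cues and their receptors, first known for steering the tips of growing axons. Semaphorins signal through plexins, with neuropilins as co-receptors for most of the secreted class 3 semaphorins, ephrins bind Eph receptors on neighbouring cells, Slits bind Robo receptors, and netrins bind DCC, neogenin and the UNC5 receptors. The same systems act outside the nervous system, above all in blood vessels, where Nrp1, Plxnd1, Robo4, Unc5b, Efnb2 and Ephb4 are well known in endothelial cells. Endocrine cells of the pituitary are excitable and secretory and share many neuronal genes.

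Depth and labels were checked first. Libraries held 19066053 to 28968476 reads on named genes in the long-term experiment and 9573101 to 13036900 in the short-term one. Rb1 stood at 1.86 to 5.09 FPM (reads scaled by library size factors, called FPM by the authors) at 6w+dox, at 2.42 to 4.05 at 12w+dox, and at 16.1 to 20.3 in 12w-res, 5.69 times the mean of the 7 mice on dox (exact two-sided permutation test over 5 and 7 mice, p = 0.0025). GFP, listed in the short-term table only, was 1025 to 1360 FPM on dox, 309.98 to 741 after 1 day, 80.7 to 171 after 3 days and 9.34 to 15.2 after 5 days, with exact two-sided permutation p of 0.057, 0.10 and 0.10, where 0.10 is the smallest that 3 mice against 3 allow. Rb1 itself was 3.47 to 4.89 FPM at 16w +dox and 4.92 to 5.38 after 5 days without dox (log2 fold change 0.27 ± 0.17 (SE), adjusted p = 0.53). Pomc, the hormone precursor of corticotrophs and melanotrophs, took 13.6% to 32.2% of reads at 6w+dox, 12.9% to 23.0% at 12w+dox and 39.1% to 43.2% in 12w-res. A pair of mice stood apart in several members, replicate 1 of 12w+dox, whose summed level of 11 marker genes of other hormone cells was 13098 FPM against 1222 to 3414 in the other three, and replicate 2 of 16w +dox.

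The members were mostly moderately expressed, and each family had a leading gene. Per kilobase of exon and averaged over all 12 long-term mice, the highest members were the plexin Plxnb2 with a level of 25.7 FPM per kb, the netrin receptor Unc5a with 24.9 and the class 3 semaphorin Sema3f with 21.8. The order differed by group, since Sema3f averaged 12.5 at 6w+dox and 28.5 in 12w-res, where it was the highest. The leading genes of the other families were the transmembrane semaphorin Sema6b (16.2), the ephrin Efna1 (10.1), Ntn1, which encodes netrin-1 (9.39), Slit1 (7.68), the ephrin receptor Ephb2 (6.85), Nrp1 (2.92) and the endothelial Robo receptor Robo4 (1.43). In the short-term experiment the same genes led 8 of the 10 families per kilobase, while Efna5 led the ephrins with 2.78 FPM per kb and Robo1 led the Robo receptors with 0.352. Levels of the 2 experiments are on separate scales and were not compared.

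Members changed in the long-term experiment in both directions. A gene is called here when its adjusted p is under 0.05 (limma on log2(FPM + 0.5), adjusted over all genes tested) and its log2 fold change is over 1 in size. From 6 to 12 weeks of dox 3 of 69 members were called higher and 8 lower, 4.35% and 11.6% of members, where 3.15% and 4.04% of all 15315 genes were. In 12w-res against 12w+dox 13 were higher and 5 lower, 18.8% and 7.25% of members beside 6.24% and 5.04% of all genes. In 12w-res against 6w+dox 8 were higher and 6 lower, 11.6% and 8.70% of members beside 5.81% and 5.82% of all genes. The median log2 fold change of the members was -0.15, 0.19 and 0.05 in these comparisons, and that of all genes was -0.0063, -0.0040 and -0.021. Groups did not overlap for 24, 25 and 25 members in these comparisons, 34.8%, 36.2% and 36.2% of members, where 25.2%, 34.5% and 32.7% of all genes had groups without overlap. With the female mice alone (3 of 6w+dox, 2 of 12w+dox, 3 of 12w-res) the members called were 1 higher and 5 lower, 9 higher and 4 lower, and 8 higher and 5 lower, beside 1.86% and 2.08%, 5.09% and 4.21%, and 6.59% and 6.44% of all genes in that fit. The comparisons share mice, so their counts are not independent.

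Scaling to the totals of recovered reads, which Pomc weighs on, gave another split. Under it the median of all genes moved to 0.29 in 12w+dox vs 6w+dox, -0.61 in 12w-res vs 12w+dox and -0.33 in 12w-res vs 6w+dox. The members called were 5 higher and 4 lower, 2 higher and 12 lower, and 4 higher and 9 lower. Of all 15315 genes, 1058 were called higher and 317 lower, then 244 and 3364, then 497 and 1638. In either direction these were 8.98%, 23.6% and 13.9% of all genes. The split of all genes thus moved in the same direction as that of the members. All 43 calls of the long-term experiment kept their sign under that scaling, but only 7 of 11, 7 of 18 and 10 of 14 were still called. In 12w-res vs 12w+dox 11 of the 13 members called higher were no longer called, with log2 fold changes under totals of 0.40 for Plxnd1, 0.48 for Ephb4, 0.50 for Sema6d, 0.54 for Robo4, 0.61 for Slit2, 0.63 for Nrp1, 0.65 for Sema7a, 0.68 for Ntng2, 0.79 for Slit1, 0.82 for Epha1 and 0.94 for Epha2, and all 5 members called lower were still called. Also lost were Efnb1, Epha5, Nrp1 and Robo4 on dox (-0.75, -1.08, -0.80 and -0.72) and Epha1, Sema3f, Sema6d and Sema7a in 12w-res vs 6w+dox (0.81, 0.85, 0.80 and 0.76).

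**Figure D1:**
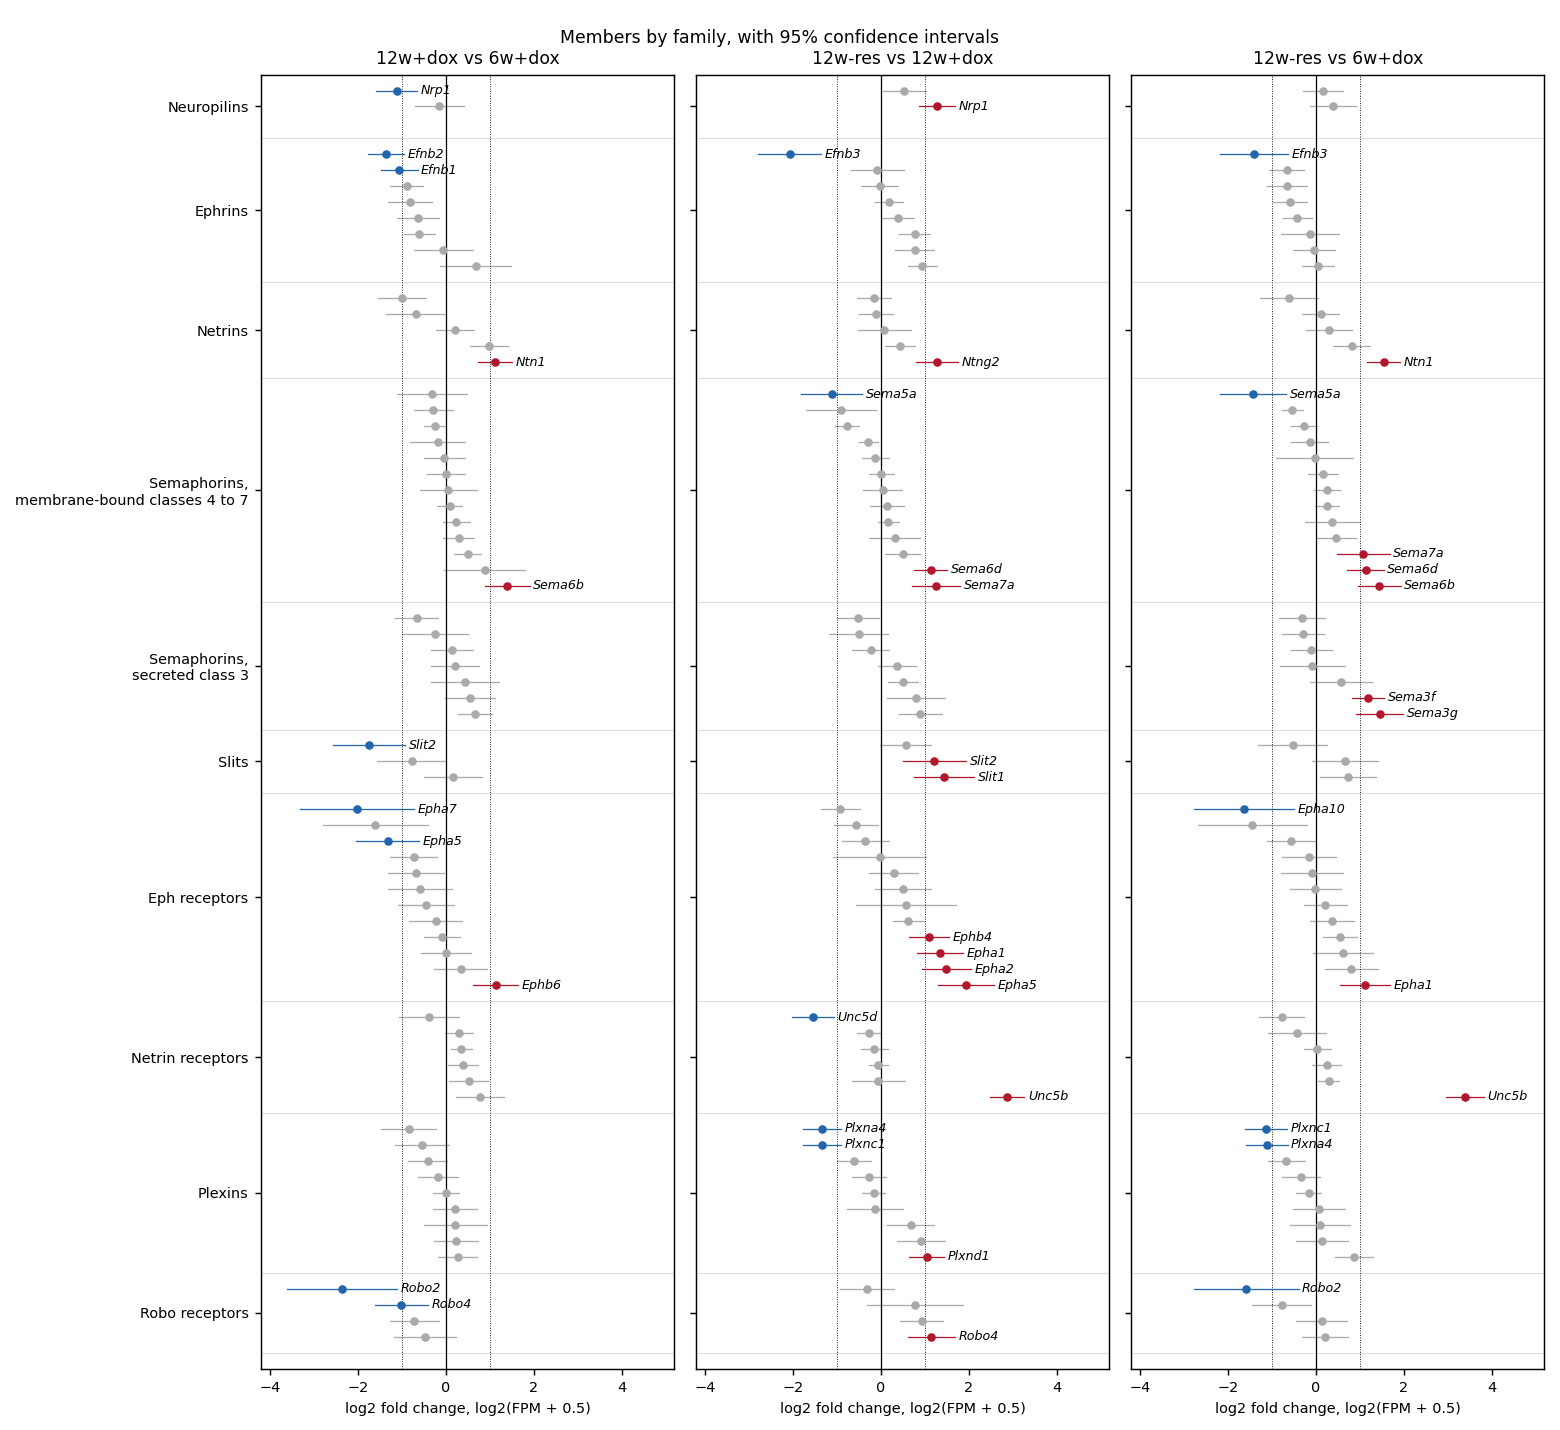
Log2 fold change, on the log2(FPM + 0.5) scale, of each of the 69 members (points) with its 95% confidence interval (bars) in the 3 long-term comparisons, by family and ordered by size within it. Red points were called higher and blue points called lower, dotted lines mark a log2 fold change of 1 in either direction, and Unc5b has the largest change in both comparisons of 12w-res.

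The largest change of all members was that of Unc5b, a netrin receptor with a cytoplasmic death domain that is known in endothelial cells and as a dependence receptor. Its promoter is shown here beside that of Plxnc1, the member with the largest fall in 12w-res vs 12w+dox among those with a promoter in the RefSeq table (GRCm38.p6). Both lie on the minus strand of chromosome 10. For Unc5b the 250 bases before the gene start are printed, at chr10:60831582-60831831. For Plxnc1 the start of the gene in the RefSeq gene list lies upstream of that in the promoter table, so only the 80 bases before both starts are printed, at chr10:94945016-94945095. They are written 5′ to 3′ in the direction of the gene, with capitals for each GC box, the letters GGGCGG or CCGCCC.
Unc5b: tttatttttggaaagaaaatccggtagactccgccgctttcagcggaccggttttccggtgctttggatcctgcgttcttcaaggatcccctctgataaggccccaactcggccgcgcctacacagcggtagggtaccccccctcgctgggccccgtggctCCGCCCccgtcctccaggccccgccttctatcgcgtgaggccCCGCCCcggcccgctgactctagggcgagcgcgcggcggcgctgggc
Plxnc1: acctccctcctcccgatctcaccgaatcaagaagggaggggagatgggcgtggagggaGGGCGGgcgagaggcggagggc
The Unc5b stretch holds 2 GC boxes and has a GC content of 66.8%, and that of Plxnc1 holds 1 with 68.8%. A GC box on either strand was found in the 300-base promoters of 44 of the 59 members in that table, 74.6%, against 38.2% of all 27025 genes there. Those 27025 include genes listed in neither experiment, while every member was listed. The share over listed genes alone was not counted, so the 2 percentages do not set the members apart from other listed genes. A GC box stood in 10 of 12 promoters of members called higher in 12w-res vs 12w+dox and in both of those called lower. None of the 59 held TTTCCCGC, TTTCGCGC, TTTGCCGC or TTTGGCGC on either strand, letters used here for an E2F-type site, and 2.61% of the 27025 genes did. These are matches of letters in a window and no measure of binding.

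Unc5b stood at 6.00, 4.90 and 4.02 FPM in the 3 mice at 6w+dox, at 7.89, 7.96, 5.39 and 8.18 in the 4 mice at 12w+dox and at 77.99, 54.3, 47.1, 45.5 and 62.6 in the 5 mice of 12w-res. Every mouse of 12w-res was thus far above every mouse on dox, with no overlap. The mean of 12w-res was 7.82 times that of 12w+dox (log2 fold change 2.87 ± 0.18 (SE), adjusted p = 5.56e-08) and 11.6 times that of 6w+dox (3.39 ± 0.20 (SE), adjusted p = 3.59e-08), and leaving out any mouse kept the first at 2.74 or more and the second at 3.26 or more. From 6 to 12 weeks of dox it differed by 0.52, adjusted p = 0.086.

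Unc5d, a further UNC5 receptor, went the other way from a low level. It was 3.77, 4.40, 4.87 and 5.78 FPM at 12w+dox against 2.08, 1.06, 0.774, 1.42 and 1.22 in 12w-res, with no overlap (log2 fold change -1.55 ± 0.22 (SE), adjusted p = 1.27e-04). Unc5a, by far the most abundant UNC5 receptor per kilobase, was 96.3 to 126 FPM at 12w+dox against 101 to 112 in 12w-res, a difference of -0.06, adjusted p = 0.67. Dcc and Neo1, which encode the netrin receptors DCC and neogenin, differed by -0.27, adjusted p = 0.12 and -0.15, adjusted p = 0.44, and Unc5c by -0.06, adjusted p = 0.89. So of the 6 netrin receptors 1 rose, 1 fell and 4 were not called, where 6.24% of all genes were called higher and 5.04% lower.

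Among the netrins, Ntn1 rose early and stayed high. It was 31.9, 24.3 and 23.6 FPM at 6w+dox, 49.2, 54.9, 48.6 and 83.3 at 12w+dox, and then 67.9, 85.1, 69.8, 91.2 and 77.2 in 12w-res. All mice of both later groups were above all mice at 6w+dox, with log2 fold changes of 1.11 ± 0.18 (SE), adjusted p = 0.0013 at 12w+dox, which was 0.94 without its replicate 4 and so below the size limit, and 1.54 ± 0.17 (SE), adjusted p = 1.85e-05 in 12w-res. Ntn4, a netrin of basement membranes, differed by 0.98, adjusted p = 0.0055 from 6 to 12 weeks of dox, just short of the size limit. Ntng2, a membrane-anchored netrin-G that binds no UNC5 receptor or DCC, was 6.35, 3.03, 3.05 and 3.35 FPM at 12w+dox against 10.2, 10.7, 8.51, 10.2 and 9.84 in 12w-res (log2 fold change 1.28 ± 0.22 (SE), adjusted p = 5.66e-04), and its exons overlap those of 6530402F18Rik on the same strand. Ntn3 and Ntng1 were called in no comparison. Summed over the 5 netrins, the level was 8.74 to 10.04 FPM per kb at 6w+dox, 13.7 to 19.6 at 12w+dox, and then 17.6 to 22.2 in 12w-res, and under totals the mean of 12w-res fell below that of 12w+dox while both stayed above 6w+dox.

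**Figure D2:**
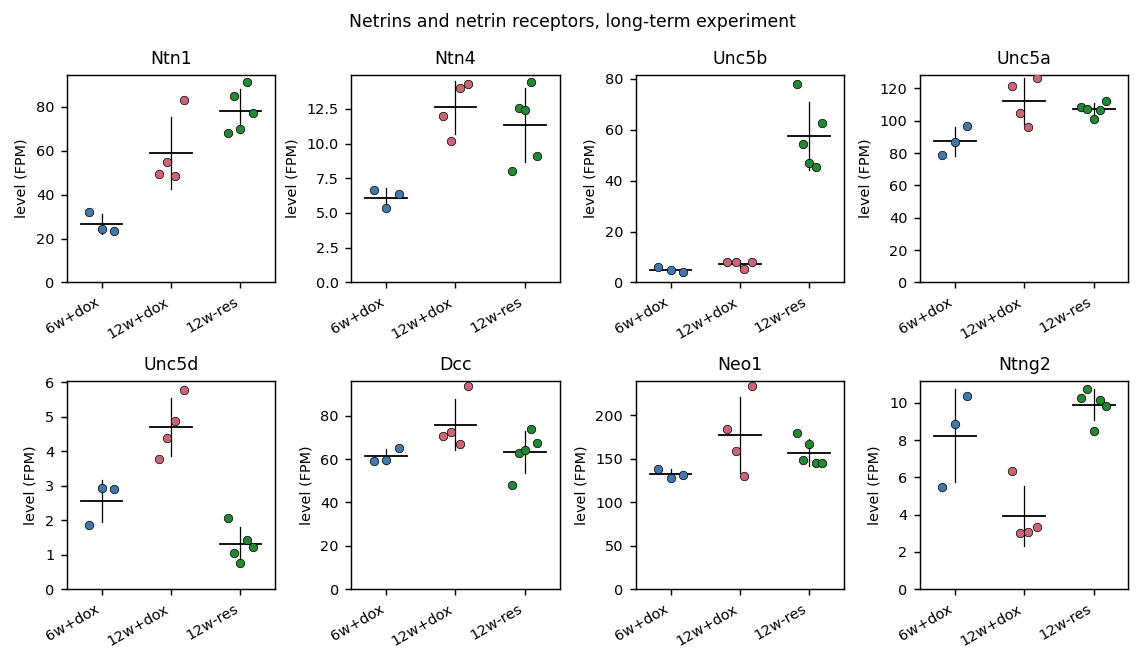
Level in FPM of netrins and netrin receptors in each mouse (points) of the long-term experiment, with the mean (horizontal line) and SD (vertical line) of each group. Unc5b lies between 45.5 and 78.0 FPM in 12w-res and at or below 8.18 on dox, and Ntn1 is higher in both later groups than at 6w+dox.

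From 6 to 12 weeks of dox 1 of 3 Slits and 2 of 4 Robo receptors fell, and in 12w-res vs 12w+dox 2 Slits and 1 Robo receptor rose, where 4.04% of all genes were called lower and 6.24% higher. Slit2, which encodes a secreted Robo ligand, fell from 13.04, 17.3 and 27.4 FPM at 6w+dox to 11.03, 4.14, 2.16 and 6.56 at 12w+dox and was 11.1, 10.6, 12.8, 13.5 and 15.5 in 12w-res. The log2 fold changes were -1.75 ± 0.38 (SE), adjusted p = 0.0066 on dox and 1.22 ± 0.34 (SE), adjusted p = 0.011 in 12w-res vs 12w+dox, where replicate 1 of 12w+dox overlapped the later group and the value was 0.86 without replicate 3 of 12w+dox. Slit1 was 14.1, 16.4, 21.7 and 51.4 FPM at 12w+dox against 92.2, 51.5, 36.8, 69.7 and 74.4 in 12w-res (log2 fold change 1.44 ± 0.32 (SE), adjusted p = 0.0032), with overlap through replicate 4 of 12w+dox. Slit3 differed by 0.57, adjusted p = 0.11.

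Robo4, the Robo receptor of endothelial cells, stood at 5.65, 10.1 and 10.9 FPM at 6w+dox, 5.79, 2.65, 2.77 and 5.78 at 12w+dox, and then 10.9, 8.72, 9.42, 8.50 and 9.89 in 12w-res. The first step was -1.01 ± 0.28 (SE), adjusted p = 0.022, a call that was lost without replicate 2 or 3 of either dox group (-0.84 to -0.90), and the second 1.15 ± 0.25 (SE), adjusted p = 0.0026, which was 0.98 and 0.99 without replicates 2 and 3 of 12w+dox. Robo2, a neuronal Robo receptor, was 6.40, 11.05 and 15.4 FPM at 6w+dox against 7.64, 0.47, 0.678 and 1.62 at 12w+dox, where replicate 1 alone was inside the 6w+dox range (log2 fold change -2.36 ± 0.58 (SE), adjusted p = 0.012). In 12w-res Robo2 was 6.29, 2.11, 3.00, 2.89 and 2.38 FPM, below 6w+dox by -1.59 ± 0.56 (SE), adjusted p = 0.04, a call lost without any 1 of 6 mice (largest adjusted p 0.12). DESeq2 and edgeR made neither call of Robo2 (adjusted p 0.053 and 0.052 on dox, 0.084 and 0.067 in 12w-res). Robo1 differed by 0.93, adjusted p = 0.0057 in 12w-res vs 12w+dox, under the size limit, and Robo3 was at 2.28 FPM or less in every mouse.

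Of the 7 secreted class 3 semaphorins, none was called on dox, and 2 were higher in 12w-res than at 6w+dox, where 5.81% of all genes were. Sema3f, a ligand of neuropilin 2, was 66.7, 56.8 and 71.5 FPM at 6w+dox, 75.1, 95.5, 114 and 139 at 12w+dox, and then 129, 130.5, 154, 154 and 174 in 12w-res. It rose by 1.18 ± 0.17 (SE), adjusted p = 1.62e-04, and each step alone was under the size limit (0.67, adjusted p = 0.018 and 0.51, adjusted p = 0.021). Sema3g, a low-level vascular semaphorin, was 1.51, 1.43 and 1.66 FPM at 6w+dox against 2.76, 4.75, 5.37, 6.79 and 6.74 in 12w-res (log2 fold change 1.45 ± 0.25 (SE), adjusted p = 6.11e-04). The other five, Sema3a to Sema3e, were called in no comparison, and Sema3e, a ligand of plexin D1, was 63.1 to 95.6 FPM at 12w+dox against 55.9 to 69.95 in 12w-res.

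The membrane-bound semaphorins held 4 called genes of 13, in 3 patterns over the long-term comparisons. Higher and lower were 1 and 0 in 12w+dox vs 6w+dox, where 3.15% and 4.04% of all genes were. In 12w-res they were 2 and 1 against 12w+dox (6.24% and 5.04% of all genes) and 3 and 1 against 6w+dox (5.81% and 5.82%). Sema6b, a transmembrane ligand of class A plexins, was 24.98, 30.2 and 27.1 FPM at 6w+dox, 57.6, 91.1, 86.4 and 61.9 at 12w+dox, and then 49.1, 90.7, 57.8, 94.9 and 97.5 in 12w-res, so it was high in both later groups (log2 fold change 1.40 ± 0.24 (SE), adjusted p = 0.0016 and 1.44 ± 0.23 (SE), adjusted p = 2.94e-04 against 6w+dox, and 0.04 ± 0.21 (SE) between them). Sema6d and the membrane-anchored Sema7a, a ligand of plexin C1, were higher in 12w-res than in either dox group. Sema6d stood at 9.37 to 16.9 FPM at 6w+dox, 13.6, 13.2, 8.47 and 12.2 at 12w+dox, and then 24.6, 27.1, 27.2, 27.6 and 24.9 in 12w-res (log2 fold change 1.14 ± 0.18 (SE), adjusted p = 2.44e-04, and 0.99 without replicate 3 of 12w+dox), and Sema7a at 2.68 to 7.04, 2.89 to 6.12 and 9.01 to 13.04 FPM (1.26 ± 0.26 (SE), adjusted p = 0.0017). Against 6w+dox the 2 genes were also called (1.13, adjusted p = 5.43e-04 and 1.08, adjusted p = 0.0089), although without replicate 1 of 6w+dox the values were 0.98 and 0.75, and without replicate 5 of 12w-res that of Sema7a was 0.99.

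Sema5a, a transmembrane semaphorin with thrombospondin repeats, was lower in 12w-res. It was 16.1, 21.6 and 27.3 FPM at 6w+dox, 10.4, 14.05, 14.05 and 39.9 at 12w+dox, and then 6.60, 7.92, 12.3, 6.02 and 6.24 in 12w-res. It was below 6w+dox by -1.43 ± 0.35 (SE), adjusted p = 0.0067 without overlap, and below 12w+dox by -1.12 ± 0.32 (SE), adjusted p = 0.015, a value that was -0.71 without replicate 4 of 12w+dox. The remaining 9 members of these classes, the Sema4 genes, Sema5b, Sema6a and Sema6c, were not called in any comparison, and Sema6c differed by -0.77, adjusted p = 3.94e-04 in 12w-res vs 12w+dox.

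The plexins, receptors of the semaphorins, split in 12w-res. Plxna4 was 12.5, 14.1, 9.95 and 13.3 FPM at 12w+dox against 3.90, 5.02, 5.73, 3.01 and 5.69 in 12w-res, and Plxnc1, the receptor of Sema7a, was 28.5, 31.9, 27.4 and 47.8 FPM against 17.5, 12.4, 15.7, 9.03 and 10.9. For both genes all mice of 12w-res lay below all mice of either dox group, with log2 fold changes of -1.35 ± 0.20 (SE), adjusted p = 1.82e-04 and -1.34 ± 0.20 (SE), adjusted p = 1.92e-04 against 12w+dox and -1.12, adjusted p = 0.0016 and -1.14, adjusted p = 0.0014 against 6w+dox, where Plxna4 was -0.98 without replicate 4 of 12w-res and -0.96 without replicate 3 of 6w+dox. Plxnd1, a plexin of endothelial cells, was 31.6, 19.3, 23.3 and 36.6 FPM at 12w+dox against 46.2, 64.3, 51.8, 61.5 and 58.02 in 12w-res (log2 fold change 1.05 ± 0.19 (SE), adjusted p = 6.91e-04, and 0.89 to 1.00 without replicate 2 or 3 of 12w+dox or replicate 2 of 12w-res). The abundant Plxnb1 and Plxnb2 differed by -0.61, adjusted p = 0.017 and -0.16, adjusted p = 0.33, under the size limit.

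Nrp1, the neuropilin that also binds VEGF-A, fell from 6 to 12 weeks of dox and was higher again in 12w-res. It was 37.6, 34.4 and 26.7 FPM at 6w+dox, 18.9, 10.2, 11.6 and 21.1 at 12w+dox, and then 35.9, 33.6, 38.6, 34.8 and 39.8 in 12w-res, so 12w+dox overlapped neither other group. The log2 fold changes were -1.12 ± 0.22 (SE), adjusted p = 0.0036 on dox (-0.94 without replicate 2 of 12w+dox), 1.28 ± 0.19 (SE), adjusted p = 1.68e-04 in 12w-res vs 12w+dox and 0.16 ± 0.21 (SE) in 12w-res vs 6w+dox. Nrp2 was 9.89 to 13.4, 6.65 to 14.5 and 11.8 to 19.4 FPM in the 3 groups and was not called.

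**Figure D3:**
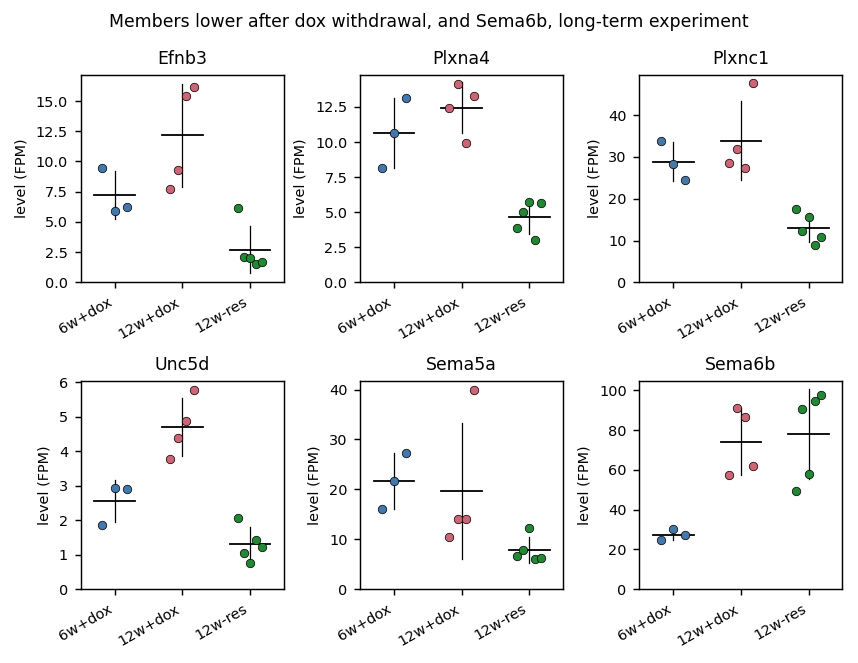
Level in FPM of 5 members that were lower in 12w-res than at 12w+dox, and of Sema6b, in each mouse (points) of the long-term experiment, with the mean (horizontal line) and SD (vertical line) of each group. Plxna4 and Plxnc1 in 12w-res lie below every mouse on dox, and replicate 4 of 12w+dox stands high for Sema5a at 39.9 FPM.

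Of the 8 ephrins, which bind Eph receptors across cell contacts, 2 fell from 6 to 12 weeks of dox, where 4.04% of all genes were called lower. Efnb2, a transmembrane ephrin of arterial endothelium, was 33.2, 31.9 and 35.4 FPM at 6w+dox, 17.6, 8.77, 11.2 and 15.3 at 12w+dox, and then 24.8, 22.4, 21.3, 20.8 and 21.8 in 12w-res (log2 fold change -1.36 ± 0.19 (SE), adjusted p = 5.21e-04 on dox). Efnb1 was 19.7, 19.3 and 23.7 and 11.5, 7.96, 7.64 and 12.6 FPM on dox (-1.06 ± 0.19 (SE), adjusted p = 0.0025), and -0.95 to -0.97 without replicate 2 or 3 of 12w+dox or replicate 3 of 6w+dox. Efna1, Efna4 and Efna5 had adjusted p under 0.05 with smaller changes (-0.89, adjusted p = 0.004, -0.82, adjusted p = 0.025 and -0.61, adjusted p = 0.018), Efna4 with only 4 to 9 reads per library at 12w+dox. These 5 ephrins and Efna2 (4.22 to 7.10 against 2.83 to 3.85 FPM) had groups without overlap in that direction, 6 of 8, where 12.4% of all genes did. The sum over the 8 ephrins was 36.4 to 40.9 FPM per kb at 6w+dox, 20.8 to 26.9 at 12w+dox, and then 27.5 to 32.9 in 12w-res. Under totals the mean at 12w+dox was still below that at 6w+dox, but that of 12w-res was then below 12w+dox.

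Efnb3, a transmembrane ephrin best known in neurons, was the ephrin called in 12w-res, where it was lower than in either dox group. It was 9.49, 5.92 and 6.25 FPM at 6w+dox, 7.75, 9.33, 15.4 and 16.1 at 12w+dox, and then 6.14, 2.11, 2.05, 1.54 and 1.66 in 12w-res. Its log2 fold change was -2.08 ± 0.33 (SE), adjusted p = 2.86e-04 against 12w+dox without overlap, and -1.40 ± 0.36 (SE), adjusted p = 0.0086 against 6w+dox, where replicate 1 of 12w-res overlapped.

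Of the 12 Eph receptors, 4 rose in 12w-res vs 12w+dox and none fell, where 6.24% of all genes were called higher and 5.04% lower. Epha5 was 4.25, 3.65 and 8.73 FPM at 6w+dox, 3.35, 1.34, 1.05 and 1.90 at 12w+dox, and then 6.19, 6.71, 9.69, 8.27 and 11.1 in 12w-res, a fall of -1.32 ± 0.34 (SE), adjusted p = 0.014 on dox (-0.97 without replicate 3 of 6w+dox) and a rise of 1.94 ± 0.29 (SE), adjusted p = 1.92e-04 after it. Epha1 was 1.99, 1.31, 0.739 and 1.09 FPM at 12w+dox against 3.69, 3.65, 3.23, 4.37 and 4.64 in 12w-res (1.35 ± 0.25 (SE), adjusted p = 8.37e-04), and it was also above 6w+dox (1.12, adjusted p = 0.0058, and 0.80 without replicate 1 of 6w+dox). Epha2, an epithelial Eph receptor, was 3.07, 1.37, 0.739 and 2.15 and 4.99, 5.02, 5.64, 5.55 and 6.80 FPM (1.49 ± 0.26 (SE), adjusted p = 5.94e-04), and Ephb4, the venous partner of ephrin B2, was 6.84, 3.82, 3.23 and 5.86 and 8.53, 12.8, 12.02, 8.97 and 11.9 (1.10 ± 0.22 (SE), adjusted p = 0.0014, and 0.93 without replicate 3 of 12w+dox). The exons of Epha1 overlap those of Zyx and the exons of Ephb4 those of Zan on the opposite strand, and whether the counting used strand is not given in the sources used here, so reads of these neighbours cannot be told apart.

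Other Eph receptors moved on dox or from low levels. Ephb6, which lacks kinase activity, was 9.49, 7.48 and 10.97 FPM at 6w+dox, 12.6, 23.4, 28.1 and 22.5 at 12w+dox, and then 8.97 to 12.9 in 12w-res (1.13 ± 0.24 (SE), adjusted p = 0.0054 on dox, and 0.99 without replicate 3 of 12w+dox or replicate 2 of 6w+dox). Epha7 was 5.30, 6.68 and 8.20 FPM at 6w+dox against 7.01, 0.146, 0.955 and 0.838 at 12w+dox, where replicate 1 was inside the 6w+dox range, and its call (-2.02 ± 0.60 (SE), adjusted p = 0.028) was lost without any 1 of 6 mice (largest adjusted p 0.087) and was not made by DESeq2 or edgeR (adjusted p 0.21 and 0.17). Epha10 was 2.62, 4.94 and 7.62 FPM at 6w+dox against 3.85, 2.85, 0.410, 0.827 and 0.221 in 12w-res (-1.64 ± 0.54 (SE), adjusted p = 0.03), a call lost without any 1 of 5 mice (largest adjusted p 0.10) and not made by DESeq2 or edgeR (adjusted p 0.051 and 0.084). Ephb2, the most abundant Eph receptor, was 46.7 to 86.04 FPM at 12w+dox against 98.6 to 115 in 12w-res (0.63, adjusted p = 0.0089). The sum over the 12 receptors was 14.003 to 17.5 FPM per kb at 12w+dox against 17.3 to 19.3 in 12w-res, an order that turned round under totals.

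There were 4 members called lower on dox and then called higher in 12w-res, namely Epha5, Nrp1, Robo4 and Slit2. Both calls of each share the 12w+dox mice, so the second does not support the first. Of all genes, 4.04% were called lower on dox and 6.24% called higher in 12w-res vs 12w+dox. The share of all genes with both calls was not counted, so whether 4 members are many cannot be told. Markers of other cells moved in the same samples. The summed level of 12 endothelial genes was 225 to 290.2 FPM at 6w+dox, 86.4 to 165 at 12w+dox, and then 252 to 339 in 12w-res, with 4 of 12 called lower on dox and 9 of 12 called higher in 12w-res vs 12w+dox. Of 10 pericyte and fibroblast genes, 3 were called lower on dox and 10 called higher in 12w-res, with summed levels of 393 to 434, 185 to 560.1 and 1018 to 1613 FPM. Of 12 macrophage and microglia genes, none was called lower on dox and 2 were called higher in 12w-res, with summed levels of 116 to 172, 120.4 to 165 and 192 to 281 FPM.

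Endocrine and glial markers moved as well. Beside the counts below, 3.15% of all genes were called higher and 4.04% lower on dox. In 12w-res vs 12w+dox 6.24% of all genes were called higher and 5.04% lower. Of 11 genes of other hormone cells, 6 were called lower on dox and 2 higher in 12w-res (58720 to 94236, 1222 to 13098 and 17377 to 35036 FPM), and of 10 pituicyte and glial genes, 6 were called lower on dox and 2 higher in 12w-res (115 to 174, 89.04 to 104 and 74.2 to 108 FPM). Of 10 neuronal genes, 2 were called lower on dox, and 2 higher and 1 lower in 12w-res (1334 to 1717, 1614 to 2000 and 1270 to 1441 FPM). On dox 7 of these 10 were below 0 and 3 above, with a median log2 fold change of -0.42. Of 7 stem and folliculostellate genes, 3 were called lower on dox and 2 higher in 12w-res (186 to 321, 223 to 439 and 343 to 896 FPM). All 8 proliferation genes were called lower in 12w-res vs 12w+dox (439 to 585 and 54.2 to 61.2 FPM). Of 9 melanotroph and corticotroph genes, 2 were called higher and 2 lower on dox and 2 higher in 12w-res, with summed levels of 109773 to 381487, 96639 to 198985 and 459199 to 581530 FPM. Pomc alone was 107477 to 376655, 93231 to 194592 and 452682 to 573321 FPM, so this sum is nearly all Pomc. In 12w-res vs 12w+dox the median log2 fold change of the 9 genes was -0.02, with 4 above 0 and 5 below. The sum of other hormone cells likewise followed Gh and Prl. Of the 4 T and B cell genes listed, 1 was called lower on dox and none changed in 12w-res, and the 1 erythroid gene listed was called in neither. No gene of these lists was at 0 in all mice of a group, and the part of these cells in the changes of the members was not tested. In bulk tissue, fewer cells of a type and less RNA per cell cannot be told apart.

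**Figure D4:**
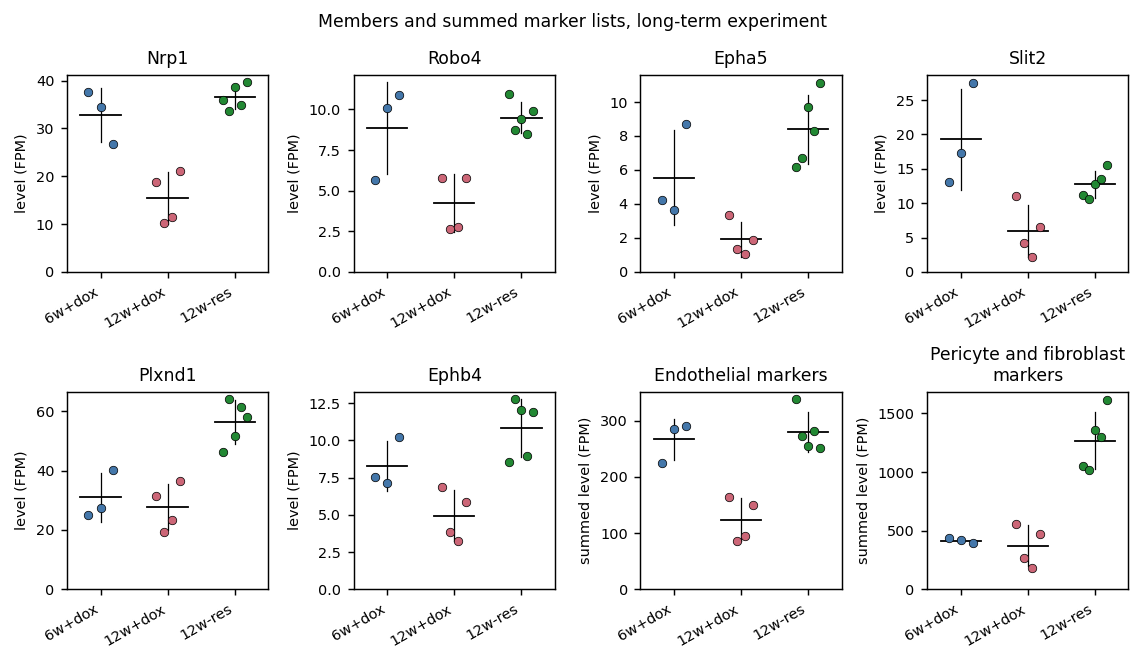
Level in FPM of 6 members, and summed level in FPM of 12 endothelial and of 10 pericyte and fibroblast marker genes, in each mouse (points) of the long-term experiment, with the mean (horizontal line) and SD (vertical line) of each group. Nrp1, Robo4 and the endothelial sum are lowest at 12w+dox and near their 6w+dox level in 12w-res, while Plxnd1 and the pericyte and fibroblast sum are highest in 12w-res.

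In the first days without dox few members were called by limma. After 1 day no member of 63 was called, where 0.00716% of 13958 genes were called higher and 0.0358% lower. After 3 days 1 member was higher and 1 lower (0.0788% and 0.0502% of all genes), and after 5 days none was called (0.086% and 0.107%). Between 5 and 1 days, both female groups, none was called (0.00716% and 0.00716%). At an unadjusted p under 0.05 limma counted 7 members higher and 12 lower after 1 day, 10 and 3 after 3 days, 4 and 7 after 5 days, and 4 and 1 between 5 and 1 days. In either direction these were 30.2%, 20.6%, 17.5% and 7.94% of members, beside 13.1%, 16.6%, 13.5% and 6.33% of all genes. With the same limits DESeq2 called 1 and 1, 2 and 1, 1 and 3, and 0 and 0 members, where it called 0.208% and 0.602%, 0.516% and 0.229%, 0.258% and 0.738%, and 0.0287% and 0.0215% of all genes. Groups did not overlap with 16w +dox for 15 members after 1 day, 19 after 3 days and 15 after 5 days, 23.8%, 30.2% and 23.8% of members, where 11.2%, 21.6% and 19.3% of all genes had groups without overlap.

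The 2 members called after 3 days without dox were both membrane-bound semaphorins. Sema5a was 13.4, 7.80 and 10.1 FPM at 16w +dox, 24.98, 16.3, 22.7 and 17.96 after 1 day, 25.4, 20.99 and 23.9 after 3 days and 15.8, 15.7 and 10.2 after 5 days. After 3 days all mice were above all mice on dox (log2 fold change 1.16 ± 0.20 (SE), adjusted p = 0.04), and after 1 and 5 days the values were 0.95, adjusted p = 0.075 and 0.40, adjusted p = 0.4. Sema6b was 29.1, 52.1 and 30.8 FPM at 16w +dox, 26.9, 27.9, 34.3 and 30.2 after 1 day, 16.3, 20.01 and 15.9 after 3 days and 25.8, 30.4 and 39.02 after 5 days, with -1.04 ± 0.19 (SE), adjusted p = 0.043 after 3 days. The call of Sema5a was lost without any 1 of 4 mice (largest adjusted p 0.18) and that of Sema6b without any 1 of 5 (largest adjusted p 0.18), and without replicate 2 of 16w +dox the values were 0.97 and -0.77.

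Apart from Sema5a and Sema6b, the members called in 12w-res were not called by limma in these days. Unc5b was 5.44, 5.67 and 4.98 FPM at 16w +dox, 2.87 to 4.95 after 1 day, 3.00 to 4.39 after 3 days and 3.35 to 7.03 after 5 days (at 5 days -0.02, adjusted p = 0.98, 95% confidence interval -0.51 to 0.48). Of the 13 members called higher in 12w-res vs 12w+dox, the short-term fold change was above 0 for 1 after 1 day, for 7 after 3 days and for 3 after 5 days, and of the 5 called lower it was below 0 for 2, 1 and 2. Over all 63 members the fold change was above 0 for 26, 42 and 27 and below 0 for 37, 21 and 36. The length of dox treatment and the library kind differ between the experiments as well as the days without dox.

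**Figure D5:**
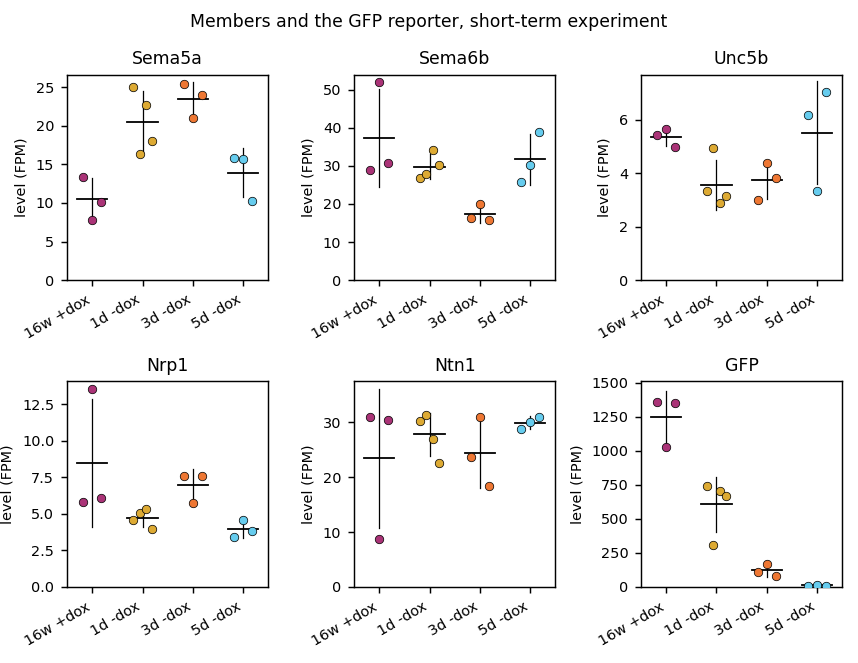
Level in FPM of 5 members and of the GFP reporter in each mouse (points) of the short-term experiment, with the mean (horizontal line) and SD (vertical line) of each group. Sema5a is higher and Sema6b lower after 3 days than on dox, replicate 2 of 16w +dox stands apart for Nrp1 and Ntn1, and GFP drops from 1025 or more to 15.2 or less.

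Members known from blood vessels were not called by limma in these days, while 1 and 3 of 12 endothelial markers were called lower after 1 and 5 days. Nrp1 was 5.82, 13.6 and 6.10 FPM at 16w +dox, 3.95 to 5.36 after 1 day, 5.75 to 7.60 after 3 days and 3.42 to 4.60 after 5 days (-0.92, adjusted p = 0.11 at 5 days), and Robo4 was 0.774 to 1.31, 0.499 to 0.644, 0.877 to 1.98 and 0.260 to 0.617 FPM (-0.82, adjusted p = 0.11). The endothelial genes summed to 33.8 to 56.3 FPM at 16w +dox, 19.4 to 25.1 after 1 day, 30.6 to 56.4 after 3 days and 14.4 to 19.4 after 5 days, with 1, 0 and 3 of 12 called lower where 0.0358%, 0.0502% and 0.107% of all genes were. Without overlap, 7, 0 and 10 of 12 lay below 16w +dox. Of all 13958 genes 781, 1534 and 1346 lay below 16w +dox in that way, and 11.2%, 21.6% and 19.3% had groups without overlap in either direction. The part of endothelial cells in the values of the members was not tested. DESeq2 called Nrp1 (-1.10, adjusted p = 0.0067) and Robo4 (-1.46, adjusted p = 0.035) lower at 5 days. Other members with the largest fitted values were Epha4, 0.535 to 1.55 FPM at 16w +dox against 1.40 to 3.39, 1.90 to 2.57 and 1.85 to 2.60 (0.96, adjusted p = 0.13 at 1 day, while DESeq2 called it with 1.27, adjusted p = 0.019 at 1 day and 1.18, adjusted p = 0.0497 at 5 days), and Plxnc1, 9.21, 2.67 and 8.81 FPM at 16w +dox against 9.47 to 13.2 after 1 day (0.86, adjusted p = 0.23), where replicate 2 of 16w +dox was low. Replicate 2 of 16w +dox also stood apart for Epha7, 0.374, 3.82 and 0.587 FPM on dox (-1.18, adjusted p = 0.28 at 1 day, while DESeq2 called it with -2.87, adjusted p = 0.0097 at 1 day and -2.69, adjusted p = 0.03 at 5 days), Slit2, 2.77, 11.1 and 2.48 FPM (-0.78, adjusted p = 0.41), Sema3d, 0.824, 6.63 and 1.38 FPM (-0.57, adjusted p = 0.61 at 3 days, and 0.16 without that mouse), and Ntn1, 30.97, 8.79 and 30.4 FPM (0.55, adjusted p = 0.51 at 5 days, and -0.037 without it). Robo2 was 0.349, 0.401 and 0.434 FPM on dox and 1.33, 0.755 and 3.89 after 3 days (1.27, adjusted p = 0.1, while DESeq2 called it with 2.33, adjusted p = 0.012), and Ntn4 3.27 to 4.60 and 1.75 to 2.69 FPM (-0.72, adjusted p = 0.24). Between 5 and 1 days the largest fitted values were 0.56, adjusted p = 0.77 for Epha5, 0.53, adjusted p = 0.72 for Unc5b and 0.48, adjusted p = 0.35 for Sema6d on the upper side, and -0.55, adjusted p = 0.68 for Sema5a, -0.30, adjusted p = 0.81 for Ephb6 and -0.28, adjusted p = 0.84 for Robo4 on the lower.

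Genes that act with or below these receptors were followed as a list of 89, of which 88 were tested long-term and 86 short-term. From 6 to 12 weeks of dox 2 were called higher and 6 lower, in 12w-res vs 12w+dox 11 higher and 3 lower, in 12w-res vs 6w+dox 7 higher and 2 lower, and in the short-term comparisons none. All genes were called at 3.15% and 4.04%, 6.24% and 5.04%, and 5.81% and 5.82% in the long-term comparisons. The median log2 fold change of the list was -0.04, 0.05 and -0.04 in the 3 long-term comparisons. On dox Rgmb, which encodes a neogenin ligand, rose by 1.45 ± 0.25 (SE), adjusted p = 0.0018 and Vav2, which encodes a guanine nucleotide exchange factor, by 1.14 ± 0.33 (SE), adjusted p = 0.025, while the netrin co-receptor gene Dscam, the L1-family adhesion gene Chl1 and the small GTPase gene Rras changed by -2.07, adjusted p = 0.0028, -1.55, adjusted p = 0.0079 and -1.45, adjusted p = 9.11e-04.

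In 12w-res vs 12w+dox the largest rises of the list were those of Rnd1, a small GTPase that binds plexins (1.74 ± 0.18 (SE), adjusted p = 7.45e-06), Vav3 (1.46, adjusted p = 5.13e-04) and Dpysl3, a collapsin response mediator (1.36, adjusted p = 3.88e-04). The genes called lower were Cntn2, an axonal adhesion gene (-1.73, adjusted p = 0.014), Trim67, which encodes a DCC-binding ubiquitin ligase (-1.37, adjusted p = 5.57e-05), and Dpysl5 (-1.07, adjusted p = 1.50e-05). Against 6w+dox the genes called higher included Dpysl3 (1.39, adjusted p = 7.26e-04) and Rnd1 (1.26, adjusted p = 2.99e-04), and the 2 genes called lower were Chl1 (-1.81, adjusted p = 0.001) and Dpysl4 (-1.12, adjusted p = 0.0031).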

How the data were processed

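Pituitary RNA of 25 shRb mice was sequenced as paired-end reads. The authors aligned them with STAR to mm10, counted RefSeq genes (the counter and its strand setting are not given in the sources used here), dropped genes unless most samples (over 50%) of some condition reached 10 reads, and deposited signal values that they call FPM, counts divided by DESeq2 size factors, in 1 table per experiment, with no sample column unused here. Whole reads were recovered for 100% of values (within 0.1 read). Lines that name no gene were left out, 2 of them long-term and 4 short-term, of which the 4 held 68.8% to 75.0% of each library.

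The main test was limma 3.58.1 (R 4.3.3) with a trend on log2(FPM + 0.5), with all groups of an experiment in 1 fit and Benjamini-Hochberg adjustment over all genes tested. Calls needed an adjusted p under 0.05 and a log2 fold change over 1 in size, and fold changes on this scale understate those of low genes. Alternatives were DESeq2 1.42.0 and edgeR 4.0.16 on the recovered counts, other scalings, pseudocounts and filters, and left-out mice. Scripts were tested on simulated counts with planted changes larger than most called here, which does not measure how well smaller changes are found. Levels per kb used exon lengths of GENCODE vM21, and promoters came from RefSeq GRCm38.p6.

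Named are members called in any comparison, the highest member per kb of each family, the 3 largest changes each way per comparison, partners of called members and, of the list of genes acting with them, the 3 largest called changes each way per long-term comparison, of which 1 is not reported here. Members, gene lists and comparisons were chosen with earlier results of these data known. Each mouse is 1 sample, and the labels do not say whether litters or cages were shared. Precision is set by 3 to 5 mice a group and by 9573101 to 28968476 reads per library.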

Additional observations from a re-analysis of the deposited data

Results flagged for a closer look

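In groups of 4 or 5 mice, 11 of 128 sets of values of a named member held 1 mouse far from the others by Dixon's test, where chance gives about 1 in 20. At 12w+dox, replicate 1 stood high for Epha7 (7.01 FPM, others 0.146 to 0.955), Ntng2 (6.35 FPM, others 3.03 to 3.35) and Robo2 (7.64 FPM, others 0.47 to 1.62). Replicate 3 stood low for Unc5b (5.39 FPM, others 7.89 to 8.18), and replicate 4 high for Epha4 (6.06 FPM, others 2.76 to 3.03) and Sema5a (39.9 FPM, others 10.4 to 14.05). In 12w-res, replicate 1 stood high for Efnb3 (6.14 FPM, others 1.54 to 2.11) and Robo2 (6.29 FPM, others 2.11 to 3.00), and replicate 5 for Sema7a (13.04 FPM, others 9.01 to 10.1). One day after dox was removed, replicate 4 stood high for Sema3d (3.95 FPM, others 1.01 to 1.496) and replicate 2 for Sema6d (8.12 FPM, others 5.96 to 6.29).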

How the results depend on the processing

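Across single members, 1149 of 1277 values under an alternative kept their direction and their side of the threshold. Rb1 and GFP kept theirs under all alternatives run. The 2 values that changed sign came without replicate 2 of 16w +dox, Sema3d after 3 days (0.16, and -1.05 at the other end of the left-out mice) and Ntn1 after 5 days (-0.037, and 0.84), neither of them a call. Still called under every alternative were Efnb2 and Sema6b of 11 members in 12w+dox vs 6w+dox, Unc5b, Epha5, Efnb3, Plxna4, Plxnc1 and Unc5d of 18 in 12w-res vs 12w+dox, and Unc5b, Ntn1, Sema3g, Sema6b, Plxnc1 and Sema5a of 14 in 12w-res vs 6w+dox. The causes of the changes below were not tested, except that fewer mice or no size limit act by construction.

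Counts of members (higher, lower) moved as follows. Without a minimum fold change they were 8 and 14 in 12w+dox vs 6w+dox, 23 and 9 in 12w-res vs 12w+dox, and 12 lower in 12w-res vs 6w+dox. The same rule took 1600 and 1833, 2975 and 2807, and 2566 lower of all 15315 genes. Scaled to totals the counts of members were 5 and 4, then 2 and 12, then 4 higher, and 0 lower after 3 days. That scaling took 1058 and 317, then 244 and 3364, then 497 higher of all genes, and 3 lower after 3 days. With female mice only, 12w+dox vs 6w+dox gave 1 and 5. DESeq2 gave 1 and 1 after 1 day, 2 higher after 3 days, and 1 and 3 after 5 days. Fitting only the groups compared gave 0 and 0 after 3 days. With sex as a covariate, run for the long-term comparisons, those counts stayed within 1.5 times. Without each mouse in turn, the counts ranged from 2 to 5 higher and 4 to 11 lower in 12w+dox vs 6w+dox, from 8 to 19 and 4 to 7 in 12w-res vs 12w+dox, from 5 to 9 and 3 to 7 in 12w-res vs 6w+dox, and from 0 to 3 and 0 to 1 after 3 days, and were 0 after 1 and 5 days. The shares of all genes called without each mouse are not given here, so these ranges do not show whether the members moved with all genes.

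Replicate numbers are shared between groups, but nothing says that they pair mice, and same-numbered mice did not deviate together: 1 of 10 such pairs had a correlation over 0.1 in the long-term experiment (-0.17 to 0.24) and 3 of 18 in the short-term one (-0.21 to 0.17), and 1 of 11 and 3 of 12 mice correlated best with their own number. With the replicate block, counts of members were 2 and 6, 13 and 5, and 7 and 3 in the long-term comparisons and 0 and 0 after 3 days. The share of all genes called with the block is not given here, so whether these counts set the members apart cannot be told. Depth limits Ephb1, with few reads per short-term library, and other members near 1 FPM.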
